A study of Mus musculus with 6 samples.

Results

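The genes described here are 31 genes of cardiomyocyte calcium handling, taken by name from a list of channels, pumps, exchangers, release proteins, buffers and calmodulin-dependent kinases. They are 31 of the 21066 gene identifiers with counts in the heart libraries, and they were divided by the site of their products: 7 of the sarcolemma, 14 of the sarcoplasmic reticulum, 4 of the mitochondria, and 6 of calmodulin and its kinases. RNA was sequenced from 3 knock-in and 3 wild-type mouse hearts, all on the C57BL/6 background and all labelled MerCreMer with 4-hydroxytamoxifen. MerCreMer is a form of Cre that cuts loxP sites once 4-hydroxytamoxifen has bound its receptor domains. The knock-in hearts carried a conditional knock-in labelled as a Txnip PPXY to AAXA mutant, and the wild-type hearts were labelled Txnip flox. Txnip, an alpha-arrestin, binds thioredoxin, and its PPXY motifs are docking sites for the WW domains of ubiquitin ligases such as Itch. The labels give no age, sex, batch or date and do not name the promoter that drives the recombinase. Batch and genotype therefore cannot be told apart. The control hearts were shared with another series.

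In each heartbeat, calcium enters a cardiomyocyte through L-type channels of the sarcolemma and opens ryanodine receptors of the sarcoplasmic reticulum, which release the larger part of the calcium that activates the myofilaments. The reticulum pump Atp2a2 takes calcium back up under the brake of phospholamban, and the sarcolemmal exchanger Slc8a1 removes what had entered. Mitochondria take up calcium through the uniporter, and calmodulin with its kinases adjusts channels, pump and release to the calcium load.

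The deposited counts were given per exon bin, a stretch of exon that does not overlap another, so 2 questions could be put to each gene: how many counts its bins held together (the gene sum), and where along the transcript they lay. Libraries held 31989883 to 34016586 counts in knock-in hearts and 30329004 to 30625093 in wild-type hearts. Txnip had 363, 751 and 670 CPM (counts scaled to library size) in the knock-in hearts, against 887, 939 and 886 CPM in the wild-type hearts. By gene sum, the Txnip values of the groups did not overlap. The log2 difference of -0.60 ± 0.20 (SE) had an adjusted p of 0.0698 by edgeR's quasi-likelihood test. Without knock-in replicate 1, whose Txnip was the lowest, it was -0.36 with an adjusted p of 0.0344. The mutated bases themselves could not be seen in these counts. Counts along Txnip differed in both directions, however. A noncoding 817-base bin near the 3' end had 1057, 2931 and 2876 counts in the knock-in hearts, against 100, 121 and 89 in the wild-type hearts. Its mean CPM ratio of knock-in to wild-type was 20.9. In the wholly coding bins that ratio ran from 0.503 to 0.603. The gene sum joins both, and the cause was not tested. Counts of long genes lay further toward the 5' end in knock-in hearts. With the exons of a gene cut into 3 equal parts, the median log2 ratio of counts in the last part to the first over 1796 long genes was -0.08, -0.24 and -0.15 in the knock-in hearts, against 0.70, 0.49 and 0.30 in the wild-type hearts. This coverage difference separates the groups completely, so its part in any gene sum and that of genotype cannot be told apart, and results are given by gene sum and by position.

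Cardiomyocyte markers were abundant in all 6 libraries. The summed level of 7 cardiomyocyte markers was 96267 to 104370 CPM in knock-in and 92671 to 97247 CPM in wild-type hearts, with none past the threshold. Among the atrial genes levels were mixed: the atrial light chain Myl7 had at most 3 counts in the knock-in and at most 21 counts in the wild-type hearts, atrial Bmp10 had at most 1 count in any library, and the natriuretic peptide gene Nppa had 50.1 to 91.0 CPM in knock-in and 79.9 to 188 CPM in wild-type hearts. The sum of 6 smooth muscle markers was 144 to 232 CPM in knock-in and 313 to 344 CPM in wild-type hearts, and 3 of the 6 fell (Acta2, Tagln, Cnn1). The endothelial sum over 7 markers was 347 to 545 CPM in knock-in and 463 to 655 CPM in wild-type hearts, and 2 fell (Cldn5, Emcn). The part of these vessel markers in the values below was not tested. In bulk tissue, fewer cells of a type and less RNA per cell cannot be told apart. The fibroblast list summed to 694 to 829 CPM in knock-in and 732 to 798 CPM in wild-type hearts (1 of 7 fell), and the macrophage list to 182 to 198 CPM in knock-in and 217 to 246 CPM in wild-type hearts (1 of 7 fell). The 11 atrial genes summed to 157 to 198 CPM in knock-in and 180 to 286 CPM in wild-type hearts. Of the 9 tested, 2 rose and 0 fell, and the 2 that rose are not among those named above. Beside these marker lists, 6.74% of all tested genes rose and 4.09% fell by gene sum. Of 13 skeletal muscle genes, summing to 2527 to 3744 CPM in knock-in and 3253 to 4261 CPM in wild-type hearts, 1 fell, and Myh4 and Myh2 had 3 counts or fewer. Nodal genes summed to 8.23 to 11.4 CPM in knock-in and 7.45 to 10.9 CPM in wild-type hearts, and genes of neurons and glia to 1.83 to 4.08 CPM in knock-in and 3.18 to 4.38 CPM in wild-type hearts.

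Several of these genes make more than one form, and the exons that differ between forms are shown because their counts say which form was measured. In Cacna1c, the pore subunit of the L-type channel, 3 pairs of mutually exclusive exons of equal length encode parts of membrane-spanning segments. All lie on the minus strand of chromosome 6 (GRCm38) and were copied from GENCODE M21 transcripts, written 5' to 3' along the transcript. Capitals mark the bases at which the exons of a pair differ, which are 32 of 104, 25 of 60 and 35 of 84 bases.
Cacna1c 104-base pair, first exon, chr6:118742265-118742368: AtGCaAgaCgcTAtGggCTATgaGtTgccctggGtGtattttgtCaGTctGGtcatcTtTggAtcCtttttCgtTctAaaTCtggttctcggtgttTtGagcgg
Cacna1c 104-base pair, second exon, chr6:118741871-118741974: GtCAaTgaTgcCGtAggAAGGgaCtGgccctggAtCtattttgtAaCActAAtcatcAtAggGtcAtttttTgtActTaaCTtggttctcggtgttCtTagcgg
Cacna1c 60-base pair, first exon, chr6:118674555-118674614: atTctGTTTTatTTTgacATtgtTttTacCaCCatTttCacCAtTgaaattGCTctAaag
Cacna1c 60-base pair, second exon, chr6:118674346-118674405: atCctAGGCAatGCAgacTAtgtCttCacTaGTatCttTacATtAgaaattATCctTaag
Cacna1c 84-base pair, first exon, chr6:118638427-118638510: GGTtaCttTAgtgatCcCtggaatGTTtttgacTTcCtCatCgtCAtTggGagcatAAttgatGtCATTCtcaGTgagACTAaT
Cacna1c 84-base pair, second exon, chr6:118637730-118637813: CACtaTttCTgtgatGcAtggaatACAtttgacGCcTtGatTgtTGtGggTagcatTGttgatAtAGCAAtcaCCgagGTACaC

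The first pair was used almost entirely one way. Its first exon held 91, 136 and 131 counts in the knock-in hearts, against 21, 24 and 58 counts in the wild-type hearts, while its second exon held 0, 1 and 1 counts in the knock-in hearts and 1, 0 and 0 counts in the wild-type hearts. The other pairs were mixed. Of the counts in the 60-base pair, the first exon held 28.8% ± 7.1 in knock-in and 30.3% ± 2.7 in wild-type hearts (SD, n = 3 each; exact permutation p = 0.9, two-sided). Of those in the 84-base pair, the first exon held 28.7% ± 3.0 in knock-in and 26.0% ± 0.96 in wild-type hearts (SD, n = 3 each; exact permutation p = 0.3). In 3 against 3 hearts the smallest p that this test can give is 0.1.

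In Camk2d, the main calmodulin-dependent kinase II of heart muscle, short alternative exons lie in the linker that joins the kinase to its association domain. The 33-base exon encodes a nuclear localisation signal, and it is shown with 2 other alternative exons of the linker. They lie on the plus strand of chromosome 3 and come from the same annotation, with no capitals because they are not copies of each other.
Camk2d 33-base exon, chr3:126802937-126802969: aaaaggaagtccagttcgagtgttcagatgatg
Camk2d 60-base exon, chr3:126805857-126805916: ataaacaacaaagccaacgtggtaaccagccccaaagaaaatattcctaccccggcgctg
Camk2d 42-base exon, chr3:126808208-126808249: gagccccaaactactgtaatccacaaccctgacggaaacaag

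The file splits the 33-base exon into bins of 3 and 30 bases and the 60-base exon into bins of 5 and 55 bases, while the 42-base exon is 1 bin, so a read across the split is counted once in each bin. With the longer bin alone, a choice made after the data were seen, the 33-base exon took 31.3% ± 5.3 of its sum with the 42-base exon in knock-in and 33.9% ± 3.5 in wild-type hearts (SD, n = 3 each; exact permutation p = 0.5). With both bins summed these shares were 46.4% ± 6.1 in knock-in and 47.8% ± 4.7 in wild-type hearts (exact permutation p = 0.7, n = 3 each). Both forms were counted in every heart, and the groups overlapped. By its longer bin, the 60-base exon took 17.3%, 13.4% and 12.5% of its sum with the 42-base exon in the knock-in hearts, against 25.0%, 19.2% and 18.6% in the wild-type hearts. The knock-in shares were lower without overlap, with an exact permutation p of 0.1, and rested on only 13 to 16 counts of that bin in knock-in and 10 to 12 counts in wild-type hearts. With both bins summed the shares were 27.1%, 21.97% and 21.6% in the knock-in hearts, against 39.0%, 28.8% and 28.4% in the wild-type hearts, also without overlap.

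Among the reticulum genes, 3 have alternative ends or early stops. For Atp2a2, the heart form SERCA2a uses a spliced last exon of 791 bases, and the widespread SERCA2b reads through into an exon end of 963 bases further upstream. The SERCA2b-type end took 3.20% ± 0.35 of the counts of both ends in knock-in and 2.81% ± 0.23 in wild-type hearts (SD, n = 3 each; exact permutation p = 0.3). Triadin (Trdn) has a short form that stops early with 8 bins of 1028 bases, and longer forms with 29 later bins of 3414 bases. Those later bins held 28.96%, 29.4% and 29.7% of the Trdn counts of both regions in the knock-in hearts, against 38.7%, 34.4% and 35.5% in the wild-type hearts, without overlap (exact permutation p = 0.1). The later bins lie toward the 3' end, where long genes as a whole also had a smaller share in knock-in hearts, and the part of that in the Trdn share was not tested. Asph encodes junctin and related short forms, and a long form with the catalytic domain of an aspartyl hydroxylase. The 12 long-form bins, 5517 bases together, held 73.3% ± 3.4 of the counts of both regions in knock-in and 70.5% ± 6.7 in wild-type hearts (SD, n = 3 each; exact permutation p = 0.6), set against 1 bin of 531 bases for the last exon of the short forms. Per base the order of the forms was the other way: counts in the long-form bins were 21.8%, 30.3% and 28.2% of those in the short-form exon in the knock-in hearts, against 17.4%, 21.6% and 33.6% in the wild-type hearts. In Slc8a1 a pair of 21-base exons was counted one way only: the first exon held 218, 346 and 303 counts in the knock-in and 65, 110 and 142 counts in the wild-type hearts, and the second held 0 in all 6 libraries, which allows up to 3 counts in each.

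**Figure D1:**
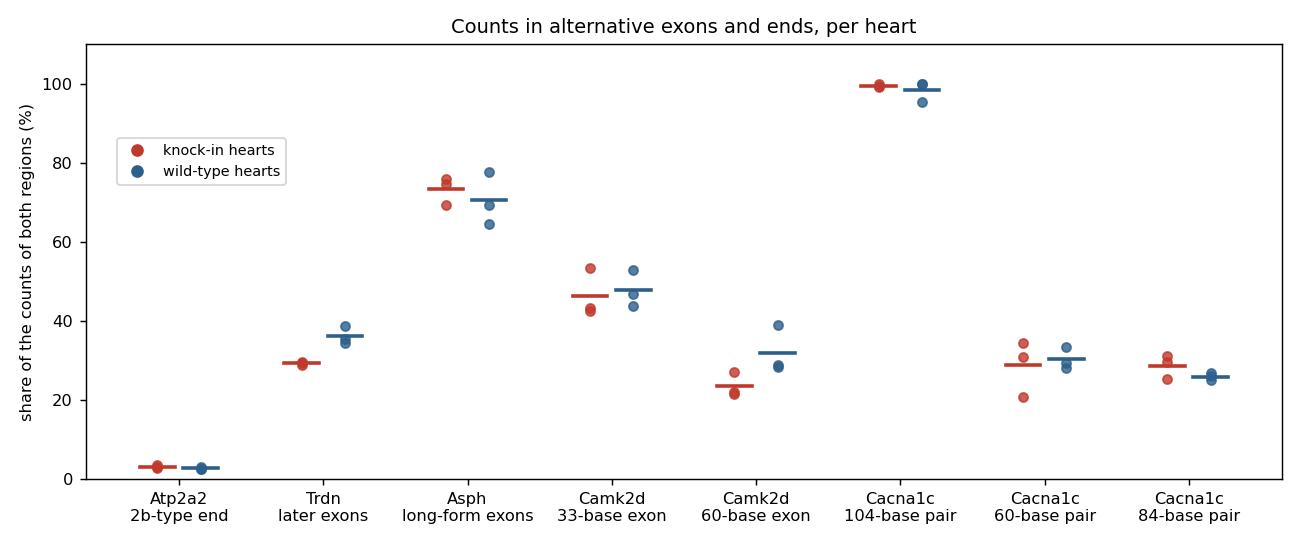
Share of counts (%, y axis, not per base, both bins of a split Camk2d exon summed) in the first named region of each pair of alternative exons or ends (x axis), for 3 knock-in hearts (red, left of each pair) and 3 wild-type hearts (blue, right); points are hearts and bars are means. Shares of Trdn's later exons and of the Camk2d 60-base exon lie lower in knock-in hearts without overlap, and the first exon of Cacna1c's 104-base pair takes over 95% in every heart.

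By gene sum, 10 of the 29 tested genes rose in knock-in hearts, 0 fell and 19 did not pass the threshold of 0.05 on the adjusted p (edgeR, Benjamini-Hochberg over all 13066 tested genes). Over all tested genes 6.74% rose and 4.09% fell. Of the 29, 1 was lower at an unadjusted p under 0.05, S100a1, and DESeq2 and limma-voom also gave 0 genes that fell, with 10 and 11 that rose. The median log2 fold change over the 29 was 0.31, beside -0.004 over all tested genes, and 24 of the 29 values were positive. The groups did not overlap in 14 of the genes with higher and 1 with lower knock-in values, beside 16.7% and 14.0% of all tested genes. The rise differed by site as counted: 5 of 7 sarcolemmal genes, 2 of 12 tested reticulum genes, 0 of 4 mitochondrial genes and 3 of 6 genes of calmodulin and its kinases. The difference between sites was not tested.

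**Figure D2:**
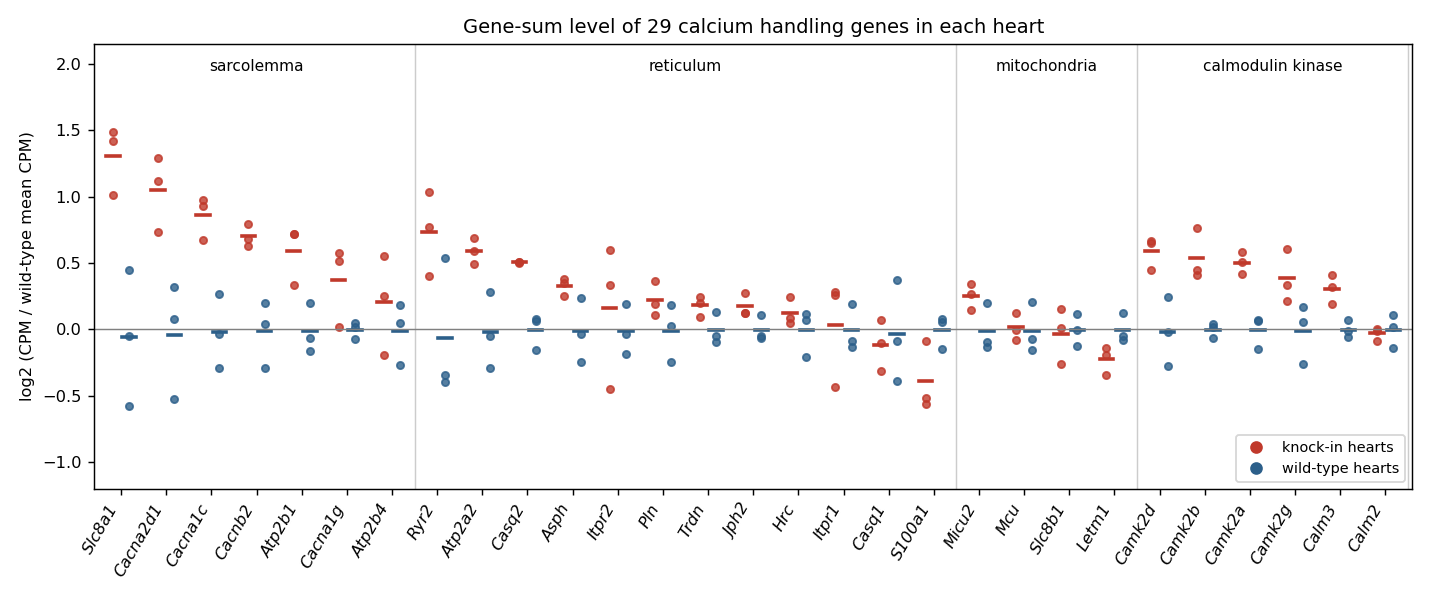
Level of each gene in each heart as log2 of its CPM over the wild-type mean CPM (y axis), for the 29 tested genes (x axis) grouped by site; red points on the left are knock-in hearts, blue points on the right wild-type hearts, and bars are means of the log2 values. Slc8a1, Cacna2d1 and Cacna1c stand highest above wild-type, and S100a1 and Letm1 have the lowest knock-in means.

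The sodium-calcium exchanger Slc8a1 (ENSMUSG00000054640, chr17:81388691-81649607, minus strand), the main route of calcium out of a cardiomyocyte, had the largest rise of the 31 genes. It had 158, 220.4 and 209.9 CPM in the knock-in hearts, against 52.6, 76.0 and 107 CPM in the wild-type hearts. All knock-in values lay above all wild-type values, 2.50-fold in the fit (log2 1.32 ± 0.21, SE; adjusted p = 0.00566). It stayed past the threshold with any 1 heart left out, with an adjusted p of at most 0.0429.

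All 3 subunits of the cardiac L-type calcium channel among the 31 genes rose. The accessory subunit Cacna2d1 (ENSMUSG00000040118, chr5:15934691-16374511, plus strand), which promotes delivery of the channel to the membrane, had 162, 211.2 and 238 CPM in the knock-in hearts, against 67.6, 103 and 121 CPM in the wild-type hearts (log2 1.07 ± 0.19, adjusted p = 0.00787). The pore subunit Cacna1c (ENSMUSG00000051331, chr6:118587240-119196418, minus strand) had 231, 285 and 275 CPM in the knock-in hearts, against 118, 142 and 174 CPM in the wild-type hearts (log2 0.87 ± 0.14, adjusted p = 0.00611). The cytoplasmic beta subunit Cacnb2, which sets surface density and gating, had 55.6, 62.7 and 57.8 CPM in the knock-in hearts, against 29.6, 37.1 and 41.5 CPM in the wild-type hearts (log2 0.70 ± 0.14, adjusted p = 0.0101). None of the 3 overlapped between groups, and in each the lowest wild-type value was that of replicate 1. Cacna1c stayed past the threshold with any 1 heart left out, with an adjusted p of at most 0.0475. Cacna2d1 lost its call without knock-in replicate 2 (adjusted p = 0.051), and Cacnb2 without knock-in replicate 2, wild-type replicate 1 or wild-type replicate 2 (up to 0.0704).

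The plasma membrane calcium pump Atp2b1 rose, with 39.1, 51.0 and 51.0 CPM in the knock-in hearts, against 27.6, 29.7 and 35.5 CPM in the wild-type hearts (log2 0.60 ± 0.14, adjusted p = 0.0223). It lost the call when knock-in replicate 2 or 3 or wild-type replicate 1 or 2 was left out (up to 0.117). The second pump, Atp2b4, had 10.1 to 16.9 CPM in knock-in and 9.57 to 13.04 CPM in wild-type hearts, with overlap (log2 0.24, adjusted p = 0.464). The T-type channel Cacna1g, which carries pacemaker current in conducting tissue, had 18.3, 17.6 and 12.4 CPM in the knock-in hearts and 11.7, 12.7 and 12.4 CPM in the wild-type hearts (log2 0.39, adjusted p = 0.150). Its knock-in replicate 3 lay inside the wild-type range.

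In the reticulum, the pump Atp2a2 (SERCA2; ENSMUSG00000029467, chr5:122453513-122502225, minus strand) and the calcium buffer calsequestrin 2 rose. Atp2a2 was the most counted of the 31 genes per exonic kilobase, at 2867 CPM per kb in knock-in and 1898 CPM per kb in wild-type hearts. Its gene sum was 16247, 18653 and 17411 CPM in the knock-in hearts, against 9456, 11150.0 and 14026 CPM in the wild-type hearts (log2 0.60 ± 0.13, adjusted p = 0.0172). The groups did not overlap, but the wild-type hearts were spread more widely, and the call was lost when knock-in replicate 2 or 3 or wild-type replicate 1 or 2 was left out (up to 0.103). Casq2, which stores calcium in the reticulum lumen, had 1755, 1755 and 1761 CPM in the knock-in hearts, against 1115, 1291 and 1307 CPM in the wild-type hearts (log2 0.51 ± 0.10, adjusted p = 0.0110). Its knock-in hearts were nearly equal and above every wild-type heart, and it lost the call without knock-in replicate 2, wild-type replicate 1 or wild-type replicate 2 (up to 0.0947).

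The ryanodine receptor Ryr2 (ENSMUSG00000021313, chr13:11553103-12106945, minus strand), the release channel itself, did not pass. It had 1243, 1602 and 1925 CPM in the knock-in hearts, against 716, 743 and 1364 CPM in the wild-type hearts (log2 0.76 ± 0.25, adjusted p = 0.0764). Wild-type replicate 3 lay above knock-in replicate 1, and without wild-type replicate 3 the adjusted p was 0.000759. Phospholamban (Pln), the small protein that restrains Atp2a2, had 3072, 2902 and 3461 CPM in the knock-in hearts, against 2273, 2744 and 3048 CPM in the wild-type hearts (log2 0.23 ± 0.12, adjusted p = 0.245). Its groups overlapped. Sarcolipin (Sln), the related brake found mainly in atria, had 0 counts in 5 libraries and 5 counts in wild-type replicate 3, the same library that held 21 Myl7 counts. A count of 0 allows up to 3 counts, or 0.0882 to 0.0979 CPM in these knock-in libraries. Fkbp1b, which encodes a ryanodine receptor binding protein, had 9, 0 and 5 counts in the knock-in and 8, 12 and 15 counts in the wild-type hearts, too few to be tested.

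The other reticulum genes did not pass the threshold. S100a1, a calcium-binding protein that acts on the pump and the release channel, had 713, 530.4 and 514 CPM in the knock-in hearts, against 786, 801 and 685 CPM in the wild-type hearts (log2 -0.37 ± 0.13, adjusted p = 0.0894). Only knock-in replicate 1 lay inside the wild-type range. Junctophilin 2 (Jph2), which holds the reticulum close to the sarcolemma, and Asph did not overlap between groups, with log2 values of 0.18 and 0.33 and adjusted p of 0.299 and 0.109. Trdn, which links calsequestrin to the release channel, had a log2 value of 0.18 (adjusted p = 0.286). Hrc, the histidine-rich calcium-binding protein of the lumen, had 0.13 (adjusted p = 0.494). The skeletal calsequestrin Casq1 had 8.32 to 10.9 CPM in knock-in and 7.90 to 13.4 CPM in wild-type hearts, with a log2 value of -0.11 (adjusted p = 0.774). The inositol trisphosphate receptors Itpr1 and Itpr2, release channels that respond to receptor signals, had log2 values of 0.07 and 0.23 (adjusted p = 0.832 and 0.552).

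No mitochondrial gene passed the threshold by gene sum in edgeR's test, and 0 of the 4 had an unadjusted p under 0.05; DESeq2 and limma-voom also called 0, with 0 and 1 at that unadjusted p. The uniporter pore Mcu had 10.2, 11.7 and 10.7 CPM in the knock-in hearts and 9.66, 10.2 and 12.4 CPM in the wild-type hearts (log2 0.02 ± 0.16, adjusted p = 0.953). The mitochondrial sodium-calcium exchanger Slc8b1 was at a log2 value of -0.02 ± 0.18 (adjusted p = 0.949). The uniporter's gatekeeper Micu2 had 0.25 ± 0.12 (adjusted p = 0.189). Letm1, an inner-membrane protein of cation exchange, had 154, 160.3 and 139 CPM in the knock-in hearts, against 192, 166 and 170.1 CPM in the wild-type hearts (log2 -0.22 ± 0.11, adjusted p = 0.209), the only one of the 29 with lower knock-in values and no overlap. With a correction for exonic length and GC content Letm1 fell past the threshold (log2 -0.38, adjusted p = 0.0304), where 4.64% of all genes fell and 10.1% rose.

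Of the calmodulin kinase genes, 3 of the 4 genes of calmodulin-dependent kinase II rose by gene sum, Camk2a over its later exons only. The cardiac isoform Camk2d had 180.5, 207.9 and 210.7 CPM in the knock-in hearts, against 109.6, 131 and 157 CPM in the wild-type hearts (log2 0.59 ± 0.13, adjusted p = 0.0194). Camk2a, best known from neurons, had 34.8, 36.7 and 32.7 CPM in the knock-in hearts, against 22.1, 25.7 and 25.7 CPM in the wild-type hearts (log2 0.50 ± 0.12, adjusted p = 0.0251). All Camk2a counts lay from the 19th of its 30 bins on, toward the 3' end. The earlier bins, coding ones among them, held 0 counts in all 6 libraries. A form with those earlier exons was therefore not counted, where 0 allows up to 3 counts in each library. Camk2b, an isoform of brain and skeletal muscle, had 12.01, 14.9 and 11.7 CPM in the knock-in hearts, against 8.89, 9.05 and 8.42 CPM in the wild-type hearts (log2 0.55 ± 0.16, adjusted p = 0.0442). In all 3 the lowest knock-in heart lay above the highest wild-type heart. Each lost the call when knock-in replicate 2 or 3 or wild-type replicate 1 or 2 was left out, and Camk2b also without wild-type replicate 3 (up to 0.105 for Camk2d, 0.138 for Camk2a and 0.209 for Camk2b). Camk2g did not overlap between groups but missed the threshold (log2 0.40 ± 0.15, adjusted p = 0.101). Of the calmodulin genes, which encode the same protein, Calm3 had a log2 value of 0.31 ± 0.11 (adjusted p = 0.0762) and Calm2 had -0.03 ± 0.11 (adjusted p = 0.889).

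The wild-type hearts were not alike. In 9 of the 10 genes that rose, the level was lowest in wild-type replicate 1 and highest in wild-type replicate 3, and so it was in 16 of the 29 tested genes and in 23.0% of all tested genes. Wild-type replicate 1 also had the largest 3' to 5' ratio over long genes and wild-type replicate 3 the smallest.

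Position along the transcript was then measured in each gene. In Atp2a2 the ratio of knock-in to wild-type counts declined toward the 3' end. In bins of the first coding exons, such as one of 139 bases with 19849, 25639 and 25732 counts in the knock-in hearts, against 5343, 8407 and 14381 counts in the wild-type hearts, the mean CPM was 2.42-fold higher in knock-in hearts. In the 791-base last exon of SERCA2a the counts were 42930, 44439 and 47864 in the knock-in hearts, against 54169, 52739 and 51829 in the wild-type hearts. There the mean CPM ratio on the scale of whole genes was 0.817, with no overlap, in the direction opposite to the gene sum. This direction depended on the scaling. In the window of the last 1000 exonic bases, which holds this exon and is scaled to its own totals, the groups overlapped. Knock-in values ran from 3596 to 3752 CPM there, and wild-type values from 3669 to 3974 CPM. The log2 fold change in that window was -0.056 ± 0.087 (SE; edgeR adjusted p = 0.787). In Ryr2 the mean CPM ratio was 1.57 in the first bin, reached its highest value of 4.59 in a 209-base coding bin, the 32nd of 107, and was lower than that in every later bin, with 0.629 in the 1509-base last exon, where 2345, 2269 and 3125 counts in the knock-in hearts stood against 4278, 3229 and 4249 in the wild-type hearts. In Cacna1c the ratio was 1.17 in the 5064-base 3' bin, and in Cacna2d1 it was 1.03 in the 3435-base 3' bin.

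**Figure D3:**
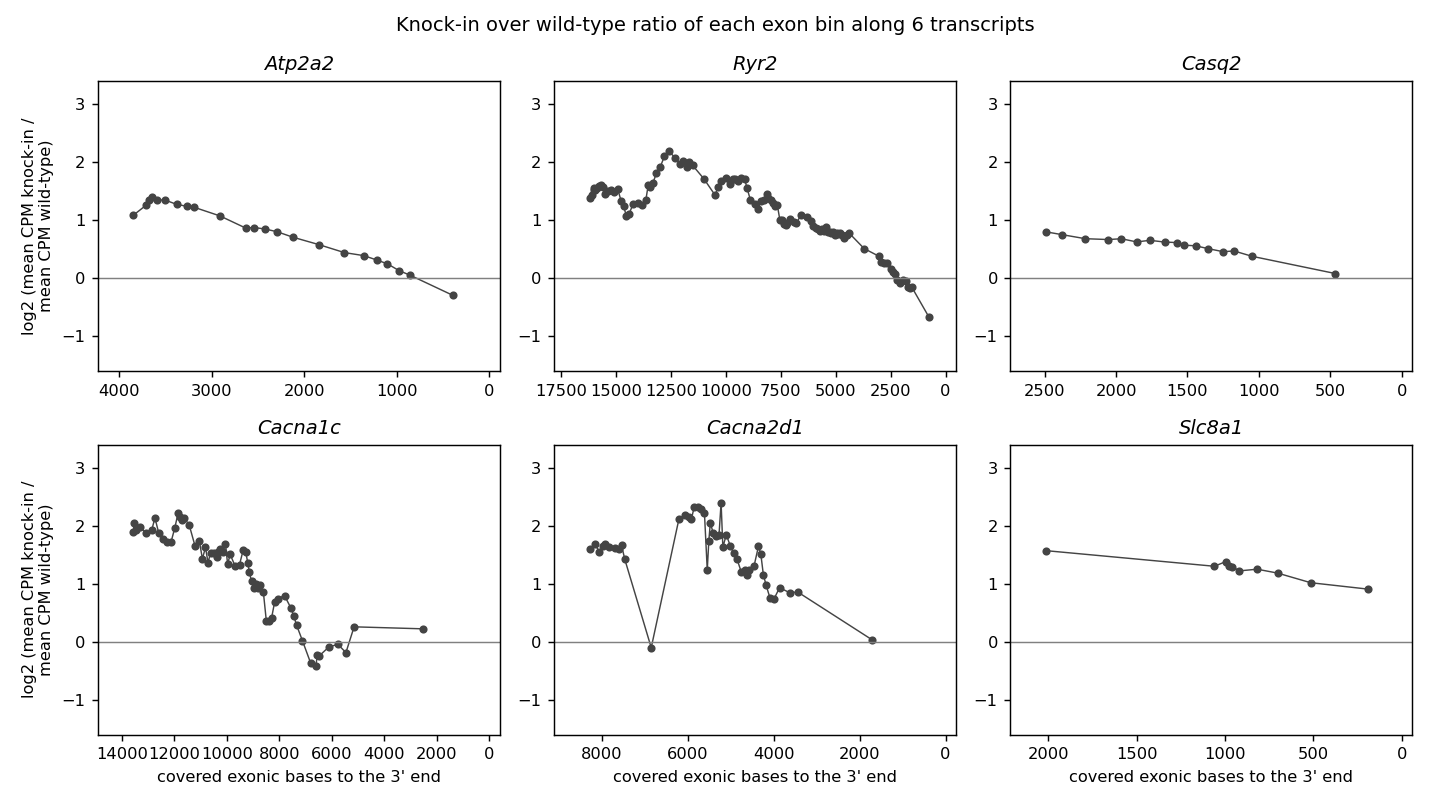
Log2 ratio of mean CPM in knock-in over wild-type hearts (y axis) for each covered exon bin with at least 60 counts over the 6 libraries, against its distance in covered exonic bases from the 3' end (x axis, 5' on the left). The ratio is lower at the 3' end than further upstream in Atp2a2, Ryr2, Casq2, Cacna1c and Cacna2d1, and the bins of Slc8a1 have 1.57 at the 5' end and 0.91 at the 3' end.

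The log2 ratio of counts in the last to the first part of the exons could be computed for 25 of the 31 genes, and in 16 it was lower in every knock-in heart than in any wild-type heart, with 0 the other way. Over all 8775 genes with a ratio these shares were 42.4% and 3.51%. The median difference was -0.62 over the 25 genes and -0.36 over all genes. Cacna1c had -0.03, -0.54 and -0.27 in the knock-in hearts, against 2.32, 2.12 and 1.048 in the wild-type hearts. Atp2a2 had -1.81, -2.12 and -1.98 in the knock-in hearts, against 0.30, -0.34 and -1.07 in the wild-type hearts. Each of these groups is separate, and the exact permutation p is 0.1, the smallest possible. Differences of -1.45 in Cacna2d1, -1.38 in Ryr2 and -1.22 in Atp2b1 followed. Of the 10 genes that rose, 9 had a ratio and 8 of these were lower in knock-in hearts without overlap, Camk2b being the exception.

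**Figure D4:**
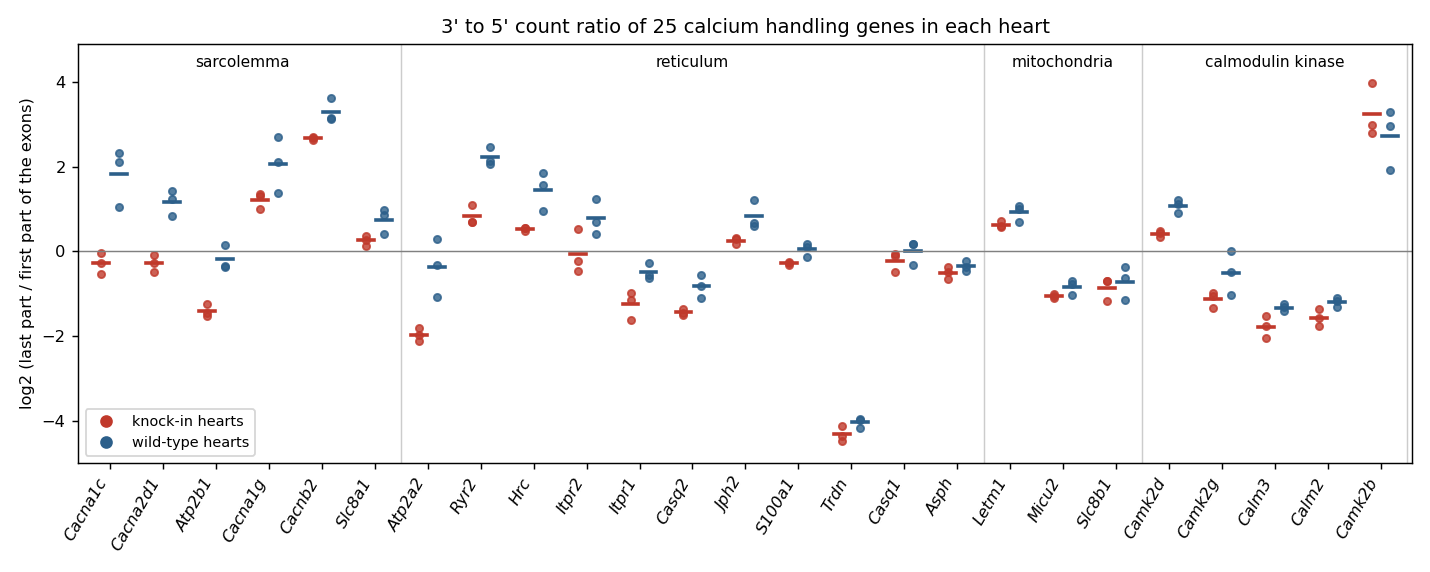
Log2 ratio of counts in the last to the first part of the exons (y axis) in each heart, for the 25 genes with enough counts (x axis) grouped by site; red points on the left are knock-in hearts, blue points on the right wild-type hearts, and bars are means. In 16 genes all knock-in hearts lie below all wild-type hearts.

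Each part of the exons was then tested alone. In the first part 9 of 27 tested genes rose, where 8.48% of all genes rose and 6.61% fell. In the middle part 10 of 29 rose, where 6.32% of all genes rose and 3.19% fell. In the last part 2 of 27 rose, Slc8a1 (log2 1.32) and Cacnb2 (log2 0.71), where 2.48% of all genes rose and 1.51% fell. None of these genes fell in any of the 3 parts. Atp2a2 had log2 fold changes of 1.03, 0.44 and -0.10 in the first, middle and last part, and Cacna1c had 1.74, 0.95 and 0.09. Ryr2, which did not pass by gene sum, rose in the first part (1.39, adjusted p = 0.00449) and the middle part (1.20, adjusted p = 0.0319), and had 0.37 in the last (adjusted p = 0.344).

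At the 3' end itself, over bins in the last 1000 exonic bases, 20 of the 31 genes could be tested, and 1 rose, Slc8a1 (log2 1.36 ± 0.25, adjusted p = 0.0294), where 1.57% of all 8287 tested genes rose and 1.77% fell. Slc8a1 lost this call without knock-in replicate 2 (adjusted p = 0.0803), knock-in replicate 3 (0.172) or wild-type replicate 2 (0.0942). In the fit that left out knock-in replicate 3, Ryr2 fell (log2 -0.55, adjusted p = 0.0398). Long last exons drop out of this window because their middle lies outside it. A window over covered bases that always keeps the last covered bin, added after the data were seen, tested 29 genes. Slc8a1 again was the 1 that rose (log2 1.32 ± 0.22, adjusted p = 0.0108), where 1.75% rose and 1.72% fell. In that window Slc8a1 had 147, 218 and 185 CPM in the knock-in hearts, against 48.0, 76.6 and 95.0 CPM in the wild-type hearts. Atp2a2 had 5233, 5659 and 5216 CPM in the knock-in hearts and 4780.2, 5176 and 5257 CPM in the wild-type hearts (log2 0.08 ± 0.10, adjusted p = 0.712), with overlap. Ryr2 had 134, 125 and 159.6 CPM in the knock-in hearts, against 204.2, 164 and 220.3 CPM in the wild-type hearts, lower without overlap (log2 -0.49 ± 0.13, adjusted p = 0.0649). In the bin of each gene that held the most counts (the highest bin), Ryr2 fell past the threshold (log2 -0.53, adjusted p = 0.0343). Slc8a1 (1.701), Cacnb2 (0.77), Calm3 (0.61) and Trdn (0.46) rose there, where 3.24% of all genes rose and 1.98% fell. For Ryr2 the highest bin is its last exon, whose counts are also those of both 3' end windows. These Ryr2 values therefore rest on the same counts scaled differently. CPM values of a window are scaled to that window's own totals, so the 929-base last bin of Casq2 is at a log2 value of 0.08 on the scale of whole genes and 0.26 in the window of covered ends. The median over the 10 genes that rose by gene sum was 0.60 by gene sum and 0.17 at the covered 3' end.

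The 3' end of Slc8a1 needs a limit of its own. The deposited bins of this gene end close to the end of its coding sequence, and GENCODE M21 lists 15586 further exonic bases beyond the last bin. Its 11 bins are therefore all coding or partly coding, and its last bin is not near the annotated end of the transcript. In that 377-base last bin it had 414, 581 and 573 counts in the knock-in hearts, against 192, 285 and 320 counts in the wild-type hearts. Its 3' to 5' ratio was 0.27, 0.37 and 0.13 in the knock-in hearts, against 0.85, 0.98 and 0.42 in the wild-type hearts, also lower without overlap.

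**Figure D5:**
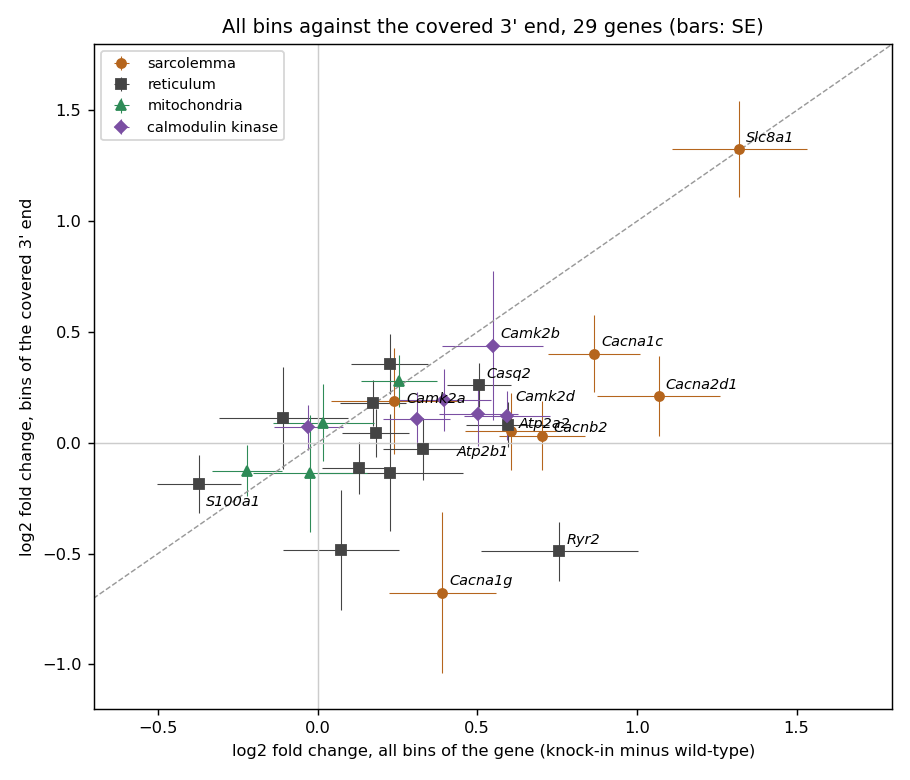
Log2 fold change (knock-in minus wild-type) over the bins of the covered 3' end (y axis) against that over all bins of the gene (x axis) for 29 genes, with SE bars, symbols by site and the line of equal values dashed. Slc8a1 lies on the line at 1.32, and Cacna1c, Cacna2d1, Atp2a2 and Ryr2 lie below it.

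A list of 58 other calcium handling genes gives the surroundings, of which 55 were found in the table and 51 tested. Of these 8 rose, 0 fell and 43 did not pass, with a median log2 fold change of -0.002, where 6.74% of all tested genes rose and 4.09% fell. At an unadjusted p under 0.05, 3 were lower (Bin1, Gem and Rem1), and DESeq2 and limma-voom also gave 8 that rose and 0 that fell. The T-type channel Cacna1h had 5.78, 5.93 and 5.65 CPM in the knock-in hearts, against 2.47, 2.88 and 1.96 CPM in the wild-type hearts (log2 1.25 ± 0.21, adjusted p = 0.00676). Sarcalumenin (Srl), a glycoprotein that binds calcium in the reticulum lumen, rose by 0.50 ± 0.11 (adjusted p = 0.0155), and calumenin (Calu), a calcium-binding protein of the secretory pathway, by 0.47 ± 0.12 (adjusted p = 0.0251). The outer mitochondrial channel Vdac1 had 1295, 1327 and 1261 CPM in the knock-in hearts, against 858, 938 and 1057 CPM in the wild-type hearts (log2 0.44 ± 0.10, adjusted p = 0.0217). The skeletal release channel Ryr1 had only 36, 18 and 28 counts in the knock-in hearts, against 3, 6 and 6 counts in the wild-type hearts (log2 2.37 ± 0.51, adjusted p = 0.0165). The L-type channel Cacna1d of pacemaker cells had 26, 51 and 49 counts in the knock-in hearts, against 7, 17 and 16 counts in the wild-type hearts (log2 1.58 ± 0.43, adjusted p = 0.0355).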

How the data were processed

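Hearts of 3 knock-in and 3 wild-type mice were compared. The authors deposited raw counts per exon bin for 425461 bins, without normalization. Per the submitters' processing notes the tools were STAR, featureCounts, Subread 1.5.2 and DESeq2 on GRCm38.p6, with settings not given in the sources used here. Per the labels' protocols, column-purified RNA was made into libraries with a NEBNext Ultra II kit. Reads across a bin border were counted once per bin: bins of 3 bases or fewer numbered 13119, and 714 of these held 300 or more counts. Gene sums are therefore not reads, and genes of short exons weigh more.

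Bins were summed over 48005 identifiers, 1194 of which join overlapping genes. Names came from GENCODE M21. Of 46606 single identifiers, 91.4% had that annotation's start and end. Genes were filtered (filterByExpr), scaled by TMM and tested in edgeR 4.0.16 (quasi-likelihood, R 4.3.3) with Benjamini-Hochberg adjustment over all genes at 0.05. Log2 fold changes set knock-in over wild-type. The 3' to 5' ratio added 10 counts to each part and needed at least 30 counts per part and 300 in both. Single values were compared by two-sided exact permutation over 6 libraries. Covered bins reached 0.1 of the gene's 90th percentile bin in counts over bin length plus 100 bases, an allowance for read length. Alternatives used DESeq2 1.42.0, limma 3.58.1, other scalings, filters and windows, spline offsets for length and GC content (5 degrees of freedom), the ratio as a covariate, and each heart left out. The steps were tested on simulated data, where 36 of 100 genes changed 1.5-fold and 82 of 100 genes changed 2-fold were recovered. Of 124 calls, 6 were false. A gene that did not pass may therefore still differ by such a fold.

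Replicate libraries differed by more than counting noise, so each was 1 sample. The series describes 3 hearts per group, and p-values set the difference between groups against the spread between these hearts. The limit of a count of 0 covers counting error only, since PCR copies were not told apart. The genes, lists and tests were chosen with earlier results of these data known. All 31 genes are named, with Txnip and, of the other calcium handling genes past the threshold, the 6 with the smallest p.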

Additional observations from a re-analysis of the deposited data

How the results depend on the processing

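The count of 10 calcium handling genes past the threshold, in either direction, was between 9 and 14 under DESeq2 (10, with its own size factors and on the unfiltered table), limma-voom (11), upper-quartile scaling (9), no filter (11), no robust moderation (11), mitochondrial genes left out (10), the first part of the exons (9), the middle part (10) and the length and GC correction (14, of which 13 rose and Letm1 fell). The genes counted were not always the same: the 9 of the first part include Ryr2 but not Camk2a or Camk2b. The count was 1 at the 3' end and 1 at the covered 3' end (chosen after seeing the data), 5 with the highest bin of each gene (4 rose and Ryr2 fell), 2 in the last part and 0 with the ratio of last to first part as covariate, where 0 had an unadjusted p under 0.05. The ratio separates the groups completely, so that fit has little left to estimate genotype with. With 1 heart left out it was 2 to 14: leaving out knock-in replicate 2 gave 2, knock-in replicate 3 gave 5, and either wild-type replicate 1 or 2 gave 3. The 3' end count of 1 was 2 over the last 500 bases, 3 over the last 2000 bases, 2 with no filter, and 0 to 1 with 1 heart left out, 0 where knock-in replicate 2 or wild-type replicate 2 was missing. Casq2 was the added gene over the last 500 bases (log2 0.36, edgeR adjusted p = 0.0408). Over the last 2000 bases Casq2 (log2 0.57, adjusted p = 0.0113) and Calm3 (log2 0.47, adjusted p = 0.0277) rose besides Slc8a1. Ryr2, lower, was the 1 gene without knock-in replicate 3 and the added gene with no filter.

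The log2 fold change was below 0 at the 3' end for Camk2d (-0.16 ± 0.41, SE) and Atp2a2 (-0.056 ± 0.087), against a positive gene sum. The same held in the highest bin for Ryr2 (-0.53 ± 0.14) and Atp2a2 (-0.15 ± 0.11). It also held in the first part for Camk2b (-0.74 ± 0.61) and in the last part for Atp2a2 (-0.10 ± 0.08). Of these values only that of Ryr2 passed the threshold. The Camk2d value rests on 17, 8 and 23 counts in the knock-in hearts, against 29, 16 and 16 in the wild-type hearts. At the covered 3' end the log2 fold change was 0.12 ± 0.11 for Camk2d and 0.08 ± 0.10 for Atp2a2. Among genes not past the threshold in either fit, it was above 0 by gene sum and below 0 at the 3' end for Ryr2 (-0.43), Cacna1g (-0.59), Itpr1 (-0.42) and Hrc (-0.05). With the ratio as a covariate it was -0.30 for Atp2a2, -0.0695 for Cacna1c, -0.07 for Cacnb2, -0.29 for Cacna2d1, -0.33 for Slc8a1, -0.10 for Atp2b1 and -0.23 for Camk2d. The cause was not tested. The count of 16 genes with a lower ratio was 11 of 15 over the first and last 1000 bases, 16 with 1 count added, and 16 to 20 with 1 heart left out. By gene sum, Txnip ran from -0.80 to -0.36 with 1 heart left out, past the threshold without knock-in replicate 1.

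No paired analysis was possible because the labels give no replicate numbers, and the numbers used here follow accession order. Depth limits Sln and Fkbp1b, whose counts were too few to test, and the alternative exons of Cacna1c and Camk2d, which rest on few counts per library.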
